A study of Mus musculus with 12 samples.

Results

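Foxp3 and 9 other genes known from regulatory T cells were followed across 5 populations of mouse CD4 T cells: Ikzf2, Ikzf4, Ctla4, Gpr83, Nrp1, Lrrc32, Entpd1, Nt5e and Capg. The members were all probe sets that the platform annotation gives to these genes. Of the 10 genes, 9 had a probe set, 22 in all, out of 18194 genes with 34958 probe sets of a single symbol. Lrrc32, which encodes the docking receptor for latent TGF-beta known as GARP, had none in the annotation and was not analysed here. A filter on low values, log2 5 or more on at least 2 arrays, passed 18 of the 22 probe sets, from 8 genes.

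The cells came from S1pr2V/+ mice, heterozygous for an S1pr2 allele that carries the Venus fluorescent protein, and every group shared this allele. S1pr2 is the receptor for sphingosine-1-phosphate that holds cells in germinal centres. Lymph node cells were sorted 10 days after subcutaneous CGG in CFA, an antigen in complete adjuvant. Venus-high and Venus-low follicular helper T cells (Tfh) were CXCR5+, PD1-high and CD44-high, with 3 arrays each from pools of 4 to 6 mice. PD1-intermediate T helper (Th) cells were CXCR5+ and CD44-high, with 2 arrays from pools of 4 mice. PD1-low Th cells were CXCR5-low and CD44-high, with 2 arrays from pools of 4 and 6 mice. Naive CD4 T cells were CD44-low, CD62L-high spleen cells, with 2 arrays from pools of 2 mice, and the labels do not settle whether their donors were immunized. Every gate required CD4 and excluded a dump channel. None of the gates used Foxp3 or CD25, so each population could hold regulatory T cells. In such bulk samples, fewer cells of a type and less RNA per cell cannot be told apart.

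Foxp3 is the forkhead transcription factor that specifies regulatory T cells, which restrain other lymphocytes. Those that acquire CXCR5 and PD1, called follicular regulatory T cells, enter the follicle and limit germinal centre responses. Ikzf4 (Eos) and Ikzf2 (Helios) are Ikaros-family transcription factors, of which Eos acts with Foxp3 in repression. Ctla4 competes with CD28 for its ligands, Nrp1 is a receptor for semaphorins that marks many regulatory T cells of thymic origin in mice, and Gpr83 is a G protein-coupled receptor. Entpd1 (CD39) and Nt5e (CD73) are ectoenzymes that together turn extracellular ATP into adenosine, and Capg caps actin filaments. Several of these genes, Ctla4 among them, are also induced in conventional T cells by activation.

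The start sites of 4 promoters are shown because the levels of Foxp3 and Gpr83 moved together and those of Ctla4 did not move with them. Each window runs from 250 bases before to 50 bases after the start of the gene on the plus strand, in RefSeq sequence of GRCm38.p6. The files name no build of their own. Of the 10 genes, 7 had an entry, with 9 windows in all. Capitals mark matches, on either strand, to the letters of a forkhead (TGTTTAC), RUNX (TGTGGT), STAT (TTCNNNGAA) or IKAROS (TGGGAA) motif.
Foxp3 start site 1, chrX:7579426-7579725: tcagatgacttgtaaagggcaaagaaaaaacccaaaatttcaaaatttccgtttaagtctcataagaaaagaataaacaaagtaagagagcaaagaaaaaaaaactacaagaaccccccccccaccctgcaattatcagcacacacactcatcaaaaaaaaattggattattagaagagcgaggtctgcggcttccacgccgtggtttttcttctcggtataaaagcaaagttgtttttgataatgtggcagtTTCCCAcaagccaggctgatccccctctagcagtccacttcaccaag
Foxp3 start site 2, chrX:7580233-7580532: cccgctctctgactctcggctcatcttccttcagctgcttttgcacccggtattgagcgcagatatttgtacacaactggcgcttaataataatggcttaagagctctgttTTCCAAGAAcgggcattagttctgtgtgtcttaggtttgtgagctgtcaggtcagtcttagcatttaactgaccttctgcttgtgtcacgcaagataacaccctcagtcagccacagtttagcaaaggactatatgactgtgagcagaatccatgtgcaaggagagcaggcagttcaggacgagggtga
Gpr83, chr9:14859960-14860259: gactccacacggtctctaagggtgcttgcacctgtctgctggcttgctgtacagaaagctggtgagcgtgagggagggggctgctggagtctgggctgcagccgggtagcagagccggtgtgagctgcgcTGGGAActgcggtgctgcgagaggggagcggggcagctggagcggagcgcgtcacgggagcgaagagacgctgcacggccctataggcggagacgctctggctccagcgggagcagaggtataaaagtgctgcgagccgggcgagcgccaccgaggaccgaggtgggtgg
Ctla4, chr1:60908775-60909074: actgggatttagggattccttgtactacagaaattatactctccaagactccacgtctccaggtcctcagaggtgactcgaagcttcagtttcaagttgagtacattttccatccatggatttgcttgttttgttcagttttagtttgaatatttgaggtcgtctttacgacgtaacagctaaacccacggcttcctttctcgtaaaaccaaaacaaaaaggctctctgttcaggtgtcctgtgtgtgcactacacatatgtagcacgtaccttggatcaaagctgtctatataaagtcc
The capitals of the first Foxp3 window and of the Gpr83 window are IKAROS letters, which 25.6% of 32851 promoters of this length held. IKAROS letters were also in the first Entpd1 window and in the Capg window, neither shown here. They were thus not particular to Foxp3 and Gpr83 among the members. The capitals of the second Foxp3 window are STAT letters, present in 8.30% of promoters and in no other member window. The Ctla4 window held none of the 4 motifs. Forkhead letters, found in 3.65% of promoters, were in 0 of the 9 windows, and RUNX letters, found in 16.8%, were in 1 window of Entpd1. These matches describe the letters of the windows, and bound factors were not measured.

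All values are deposited log2 signals of a probe set, compared between groups for 1 probe set at a time. By the quantiles of their values the 12 arrays formed 3 sets, called batches here and not named in the labels: batch 1 with Venus-high 1, Venus-low 1 and naive 1, batch 2 with Venus-high 2, Venus-low 2, PD1-low 1 and naive 2, and batch 3 with the other 5 arrays. Of 17901 tested probe sets, 1696 were displaced in batch 2, that is, shifted there by over 3 log2 units relative to batch 1 and to batch 3. S1pr2 averaged 12.89 ± 0.27 in Venus-high Tfh and 10.25 ± 0.41 in Venus-low Tfh (SD, n = 3 each), in the order of the gates. The 6 CD4 T cell markers, Cd4, Cd3d, Cd3e, Cd3g, Thy1 and Cd28, averaged 13.7 to 14.4 on every array. The summed level of 7 myeloid and dendritic cell markers was 15.2 to 15.4 in Venus-high Tfh, 15.1 to 15.5 in Venus-low Tfh, 15.1 to 15.2 in PD1-intermediate Th, 15.1 to 15.4 in PD1-low Th and 15.4 to 15.5 in naive cells, with all 7 below log2 5 on every array. Of 5 B cell markers on the array, Ms4a1 and Cd79a were below log2 5 on every array, and Pax5 was above it only on the 4 arrays of batch 2. Cd22 read 12.14 to 13.01 in Venus-high Tfh, 10.60 to 12.28 in Venus-low Tfh, 9.32 to 10.13 in PD1-intermediate Th, 3.77 to 4.19 in PD1-low Th and 2.39 to 3.18 in naive cells, and Cd79b was highest on PD1-low 2, at 8.99. The summed level of the 5 was 22.8 to 25.7 in Venus-high Tfh, 22.1 to 27.2 in Venus-low Tfh, 23.5 to 23.6 in PD1-intermediate Th, 19.7 to 20.4 in PD1-low Th and 12.2 to 16.5 in naive cells. That of the 3 plasma cell markers Sdc1, Xbp1 and Jchain was 22.6 to 26.6, 22.7 to 28.0, 20.3 to 21.1, 15.3 to 17.7 and 14.7 to 15.4 in the groups of that order. Of 4 CD8 and NK cell markers, Cd8a and Ncr1 were below log2 5 on every array, while Cd8b1 and Eomes reached 6.62 and 8.09 on PD1-low 2, and their summed level was 9.35 to 10.3, 9.41 to 12.6, 14.9 to 15.1, 15.3 to 19.6 and 10.1 to 12.4. Of 4 stromal markers, Cdh5 and Col1a1 were below log2 5 on every array, and the 4 summed to 13.9 to 17.4. The part of these genes in the results was not tested. Differences are the first group minus the second in log2 units with their SE, tested with limma over all tested probe sets and called at an adjusted p under 0.05. Counts at an unadjusted p under 0.05 are given for members and listed genes only. The share of all tested probe sets at that threshold was not computed, so these counts have no background beside them. Nothing in the labels says that the 3 batches were separate experiments, and p-values cover the spread between these pools.

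Foxp3, measured by probe set 1420765_a_at, was low in Venus-high Tfh and high in the other 4 populations. Its level was 6.19, 5.73 and 6.07 on the Venus-high Tfh arrays, 11.16, 10.71 and 11.13 on the Venus-low Tfh arrays, 11.05 and 11.34 on the PD1-intermediate Th arrays, 11.52 and 12.34 on the PD1-low Th arrays, and 10.14 and 8.22 on the naive arrays. No Venus-high array came within the range of any other group, and the naive arrays lay below all Venus-low, PD1-intermediate and PD1-low arrays. Every array was above log2 5. From high to low the group means were 11.93 ± 0.58 in PD1-low Th (SD, n = 2), 11.19 ± 0.21 in PD1-intermediate Th (n = 2), 10.999 ± 0.25 in Venus-low Tfh (n = 3), 9.18 ± 1.36 in naive cells (n = 2) and 6.00 ± 0.24 in Venus-high Tfh (n = 3).

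The upper neighbours in this order did not pass the test of their difference. Foxp3 differed by -0.74 ± 0.58 between PD1-intermediate and PD1-low Th (adjusted p = 0.859, 95% interval -2.06 to 0.58) and by -0.19 ± 0.53 between Venus-low Tfh and PD1-intermediate Th (adjusted p = 0.837, interval -1.40 to 1.01). Between Venus-low Tfh and naive cells the difference was 1.82 ± 0.53 (adjusted p = 0.0735, and 0.0067 with a batch term). Foxp3 fell in Venus-high Tfh against naive cells, by 3.18 ± 0.53 (adjusted p = 0.0055), with differences of -3.95 in batch 1 and -2.49 in batch 2. In Venus-high Tfh against Venus-low Tfh it fell by 5.003 ± 0.47 (95% interval -6.08 to -3.93, adjusted p = 0.0037). This comparison lost its call when the 6 Tfh arrays alone were fitted without a block (adjusted p = 0.0935) and without the 4 arrays of batch 2 (adjusted p = 0.104), with differences of -5.00 and -5.01.

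**Figure D1:**
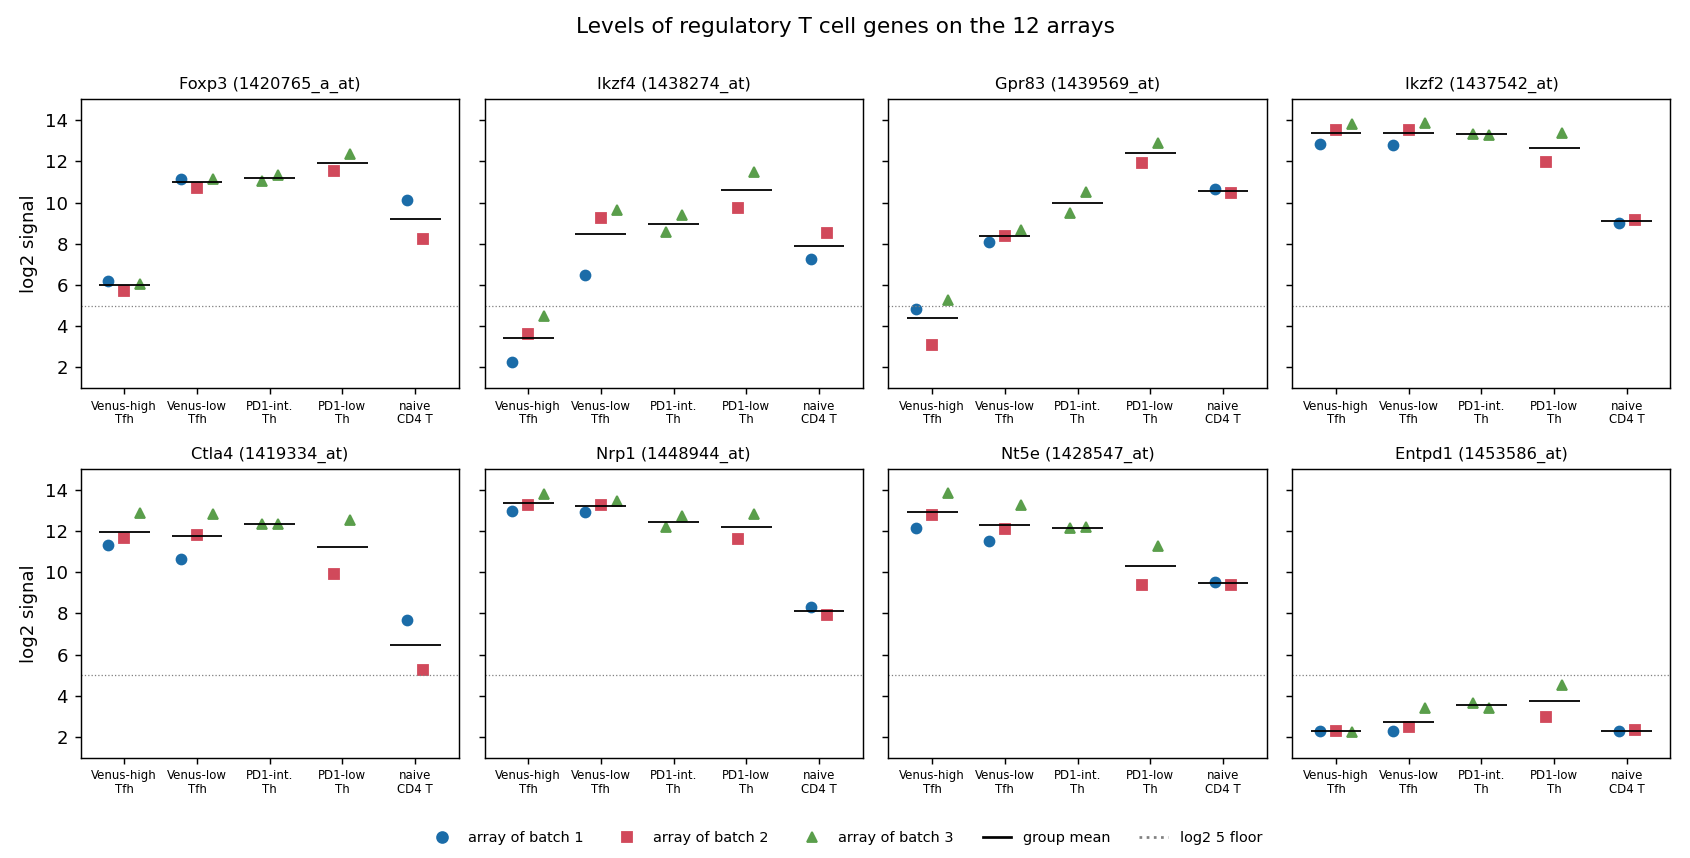
Log2 signal of the probe set with the highest mean of each gene (y axis) on each of the 12 arrays, by group (x axis). Points are arrays, coloured and shaped by batch, black lines are group means and the dotted line is log2 5. Foxp3, Ikzf4 and Gpr83 sit lowest in Venus-high Tfh, whereas Ikzf2, Ctla4 and Nrp1 sit lowest in naive cells and Entpd1 stays below the dotted line.

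Ikzf4 followed the order of Foxp3 in its best measured probe set, 1438274_at. Its level was 2.25, 3.61 and 4.47 in Venus-high Tfh, 6.46, 9.25 and 9.65 in Venus-low Tfh, 8.56 and 9.37 in PD1-intermediate Th, 9.76 and 11.48 in PD1-low Th, and 7.25 and 8.51 in naive cells. All 3 Venus-high arrays were below log2 5, and their values did not overlap those of any other group. By group means Eos was at least 10.9-fold lower in Venus-high than in Venus-low Tfh, taking log2 5 as the level of the dim group. The measured difference was -5.01 ± 0.95. That difference missed the threshold in the fit without batch (adjusted p = 0.0742) and passed it with the replicate number as a block (adjusted p = 0.0059) and with a batch term (adjusted p = 0.0022). The differences within batches 1, 2 and 3 were -4.22, -5.63 and -5.18. Against naive cells Ikzf4 fell in Venus-high Tfh, by at least 7.34-fold (adjusted p = 0.0332), and between Venus-low Tfh and naive cells the difference was 0.58 ± 1.06 (adjusted p = 0.911, interval -1.85 to 3.00). The call against naive cells was lost in 10 of 24 alternatives. Of these, 6 were fits without 1 array, namely Venus-high 1 or 2, PD1-intermediate 1 or 2 and naive 1 or 2.

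Gpr83 had the same lowest group but its highest levels in PD1-low Th and in naive cells. Probe set 1439569_at read 4.84, 3.10 and 5.27 in Venus-high Tfh, 8.08, 8.40 and 8.68 in Venus-low Tfh, 9.47 and 10.51 in PD1-intermediate Th, 11.91 and 12.91 in PD1-low Th, and 10.65 and 10.46 in naive cells. The 3 lowest ranges, those of Venus-high Tfh, Venus-low Tfh and PD1-intermediate Th, did not overlap, and both PD1-low arrays were above all others. Venus-high 1 and 2 were below log2 5, which limits the size of every difference from Venus-high Tfh on this probe set. Gpr83 fell in Venus-high against Venus-low Tfh, by 3.99 ± 0.58 (adjusted p = 0.0249), with within-batch differences of -3.24, -5.30 and -3.41. With values under log2 5 set to log2 5 the difference was -3.30. The call of Gpr83 was lost in 11 of 25 alternatives, with adjusted p from 6.92e-04 to 0.44, 8 of them fits without 1 array, those of Venus-high 1, Venus-low 1, 2 or 3, PD1-intermediate 1 or 2 and naive 1 or 2. Against naive cells it fell by 6.15 ± 0.64 (adjusted p = 4.92e-04), and this call held in all 24 alternatives. The second probe set, 1423415_at, read 4.51, 2.58 and 2.86 in Venus-high Tfh, 5.67, 4.84 and 5.86 in Venus-low Tfh, 6.97 and 7.57 in PD1-intermediate Th, 9.70 and 11.62 in PD1-low Th, and 7.39 and 8.11 in naive cells. It correlated with the first at r = 0.942 over the 12 arrays, and its Tfh difference of -2.14 ± 0.65 was not called (adjusted p = 0.311, and 0.0592 with a batch term). All Venus-high arrays were below log2 5 on this second probe set.

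In the step between the Tfh groups, 2 of 18 tested probe sets of these genes fell, Foxp3 and Gpr83, and 0 rose. Of all 17901 tested probe sets 0.397% fell and 0.609% changed in either direction. With a batch term 3 of the 18 fell, Ikzf4 being the third, against 6.78% of all that fell. Over the 12 arrays the fit with the replicate block called 216 probe sets in all, and the fit without a block called 109. Over the 6 Tfh arrays alone these counts were 1050 and 0.

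**Figure D2:**
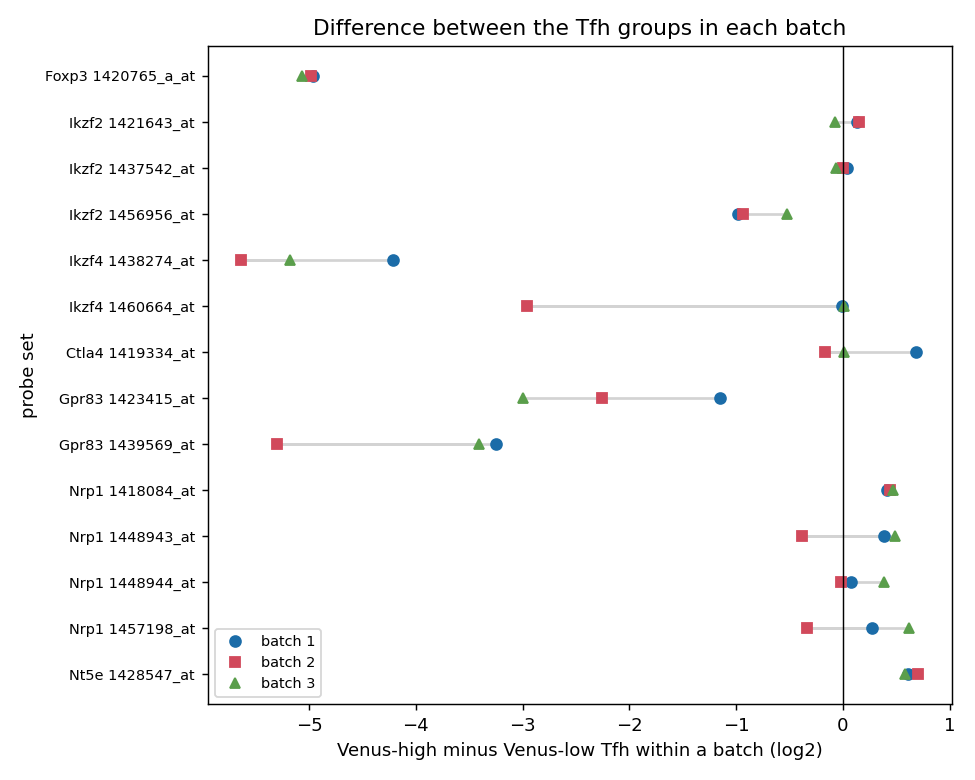
Venus-high minus Venus-low Tfh difference in log2 signal (x axis) for each member probe set that was tested and not displaced in a batch (y axis), 1 point per batch, with the line at 0 marking no difference. Foxp3, Ikzf4 1438274_at, both Gpr83 probe sets and Ikzf2 1456956_at lie left of 0 in all 3 batches. Ikzf4 1460664_at lies at -0.0046, -2.96 and 0.0055 in batches 1, 2 and 3. The other Ikzf2 probe sets, Ctla4, Nrp1 and Nt5e lie between -0.38 and 0.71.

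Ikzf2 had another order of levels than Foxp3. Its probe set 1437542_at read 12.83, 13.51 and 13.79 in Venus-high Tfh, 12.79, 13.51 and 13.85 in Venus-low Tfh, 13.34 and 13.28 in PD1-intermediate Th, 11.97 and 13.35 in PD1-low Th, and 9.01 and 9.16 in naive cells. The 4 lymph node groups overlapped and the naive arrays lay below all of them. The difference between the Tfh groups was -0.01 ± 0.43 (adjusted p = 1, 95% interval -0.998 to 0.98, and -0.53 to 0.51 with a batch term). Helios rose in Venus-high Tfh against naive cells by 4.29 ± 0.48 (adjusted p = 7.46e-04). Probe set 1456956_at, which correlated with it at r = 0.953, had a Tfh difference of -0.81 ± 0.82 (adjusted p = 1), and its within-batch differences were -0.99, -0.93 and -0.52. Probe set 1421643_at was the weakest of the 3 and ordered the groups in another way: 6.24, 6.96 and 7.62 in Venus-high Tfh, 6.12, 6.81 and 7.69 in Venus-low Tfh, 5.31 and 4.40 in PD1-intermediate Th, 2.77 and 4.39 in PD1-low Th, and 3.06 and 2.77 in naive cells. On this probe set both PD1-low arrays were below log2 5 together with both naive arrays, and Venus-high Tfh were at least 3.83-fold above PD1-low Th (adjusted p = 0.0151).

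Ctla4 and Nrp1 shared with Helios the lowest place of naive cells. Ctla4 (1419334_at) read 11.34, 11.65 and 12.85 in Venus-high Tfh, 10.66, 11.82 and 12.84 in Venus-low Tfh, 12.34 and 12.33 in PD1-intermediate Th, 9.91 and 12.52 in PD1-low Th, and 7.66 and 5.28 in naive cells. Its naive arrays lay below all others, while the other groups overlapped. Ctla4 rose by 5.48 ± 1.00 in Venus-high Tfh against naive cells (adjusted p = 0.0095) and differed by 0.17 ± 0.90 between the Tfh groups (adjusted p = 1, interval -1.88 to 2.23). Nrp1 (1448944_at) read 12.98, 13.25 and 13.82 in Venus-high Tfh, 12.91, 13.26 and 13.44 in Venus-low Tfh, 12.19 and 12.71 in PD1-intermediate Th, 11.59 and 12.82 in PD1-low Th, and 8.34 and 7.95 in naive cells. Here too the naive arrays were lowest, and the Tfh groups overlapped each other. Nrp1 rose by 5.21 ± 0.42 in Venus-high Tfh against naive cells (adjusted p = 1.27e-04) and differed by 0.14 ± 0.38 between the Tfh groups (adjusted p = 1, interval -0.72 to 1.00). Its other 3 probe sets rose against naive cells as well, 1448943_at by 5.23, 1457198_at by 5.07 and 1418084_at at least 89.4-fold, its naive arrays lying below log2 5, and correlated with 1448944_at at r from 0.944 to 0.95.

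Nt5e was higher in the Tfh groups and PD1-intermediate Th than in PD1-low and naive cells. Probe set 1428547_at read 12.14, 12.80 and 13.85 in Venus-high Tfh, 11.53, 12.09 and 13.26 in Venus-low Tfh, 12.15 and 12.17 in PD1-intermediate Th, 9.39 and 11.26 in PD1-low Th, and 9.52 and 9.40 in naive cells. Both PD1-intermediate arrays lay within the ranges of Venus-high and of Venus-low Tfh. PD1-low arrays did not overlap the Tfh and PD1-intermediate arrays, and PD1-low array 1 was level with the naive arrays. CD73 rose by 3.47 ± 0.71 in Venus-high Tfh against naive cells (adjusted p = 0.0163) and differed by 0.63 ± 0.64 between the Tfh groups (adjusted p = 1), with within-batch differences of 0.61, 0.71 and 0.58. That last difference passed the threshold only in the fit of the 6 Tfh arrays with the replicate number as a block (adjusted p = 0.0488). The other probe sets of Nt5e added little: 1459023_at stayed between 2.17 and 2.31, and 1422974_at reached log2 5 only on Venus-high 3 and Venus-low 3, at 7.21 and 5.95. Both are arrays of batch 3, where 1422974_at was displaced, by over 3 log2 units relative to batch 1 and to batch 2.

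In Venus-high Tfh against naive cells the genes moved both ways. Of 18 tested probe sets 9 rose, against 6.59% of all tested, and 4 fell, against 2.93% of all. Those that rose belonged to Ikzf2, Ctla4, Nrp1 and Nt5e, and those that fell to Foxp3, Ikzf4 and Gpr83. Leaving out 1 array ended 7 of these 13 calls: that of Ikzf4 as given above, those of Ctla4, Gpr83 1423415_at and Nrp1 1457198_at without naive 2, that of Nrp1 1448943_at without naive 1, that of Nt5e without naive 1 or 2, and that of Ikzf2 1456956_at without naive 1, naive 2 or Venus-high 3 (adjusted p from 0.0504 to 0.219). Venus-low Tfh against naive cells showed the same 9 rises (6.64% of all tested rose), while 0 of the 18 fell (2.55% of all fell, and 2 of the 18 were lower at an unadjusted p under 0.05, both of Gpr83). The batch term gave 10 rises there, Foxp3 being the added one (16.9% of all), and both Gpr83 probe sets fell (17.7% of all). PD1-intermediate Th against naive cells gave 6 rises, of Ikzf2, Ctla4 and Nrp1, against 4.61% of all tested, and 8 with a batch term, Foxp3 among them (6.95% of all). PD1-intermediate Th and naive cells share no batch, so the batch-term result is drawn only through the other groups. Their median difference over all tested probe sets was 0.63 in the fit without batch. Of the 9 and 6 rises in the fit without batch, 6 and 4 lost their call when 1 array was left out, each without naive 1 or naive 2, and some also without Venus-high 2, Venus-low 2 or 3, or PD1-intermediate 1 or 2. These comparisons share the naive arrays.

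In the other steps few of the genes passed. Between Venus-low Tfh and PD1-intermediate Th limma called 0 of the 18 probe sets (0.268% of all tested), with 3 at an unadjusted p under 0.05 and 1 called with a batch term (3.05% of all), which was Ikzf2 1421643_at at 2.88 ± 0.39. Between PD1-intermediate and PD1-low Th it called 0 of the 18 (2.49% of all), with 3 at an unadjusted p under 0.05. With a batch term 4 of the 18 were called there (9.07% of all): Ikzf4 lower by 2.18 ± 0.49, Gpr83 lower on both probe sets, and Nt5e higher by 1.12 ± 0.26. Between PD1-low Th and naive cells, 1 of the 18 rose (0.0223% of all rose), Nrp1 1448944_at, by 4.06 ± 0.46 (adjusted p = 0.0452). This call was lost in 14 of 24 alternatives, with adjusted p up to 0.997, among them the fits without any 1 array other than PD1-low 1. Foxp3 differed in that step by 2.75 ± 0.58 (adjusted p = 0.337, and 0.0434 with a batch term), its PD1-low arrays lying above both naive arrays. With a batch term 5 of the 18 rose in this step (0.251% of all): Foxp3, Ikzf2 on 2 probe sets and Nrp1 on 2.

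Among the 10 pairs of groups, Gpr83 differed most between Venus-high Tfh and PD1-low Th. In Venus-high Tfh against PD1-low Th, 4 of 18 fell (3.37% of all), the probe sets of Foxp3, Ikzf4 and Gpr83, and 1 rose (4.25% of all), Ikzf2 1421643_at. Gpr83 1439569_at differed by -8.01 ± 0.64 there (adjusted p = 1.50e-04). In that comparison 6 of 18 rose with a batch term (15% of all), of Ikzf2, Nrp1 and Nt5e, and Foxp3, Ikzf4 and Gpr83 fell on 4 probe sets (13.7% of all). In Venus-low Tfh against PD1-low Th, 2 of 18 fell (2.73% of all), both of Gpr83, by 4.02 ± 0.64 and 5.21 ± 0.73, and 1 rose (4.13% of all), again Ikzf2 1421643_at. Adding a batch term, 7 rose there (16% of all), of Ikzf2, Nrp1 and Nt5e, and 4 fell (14.8% of all), of Foxp3, Ikzf4 and Gpr83. In Venus-high Tfh against PD1-intermediate Th, 4 of 18 fell (0.86% of all) and 0 rose (0.737% of all, with 2 higher at an unadjusted p under 0.05), Foxp3 by 5.20 ± 0.53 (adjusted p = 0.0022). The same number fell with a batch term (3.18% of all) and 4 rose (4.34% of all), of Ikzf2, Nrp1 and Nt5e. Leaving out 1 array ended the call of Ikzf2 1421643_at against PD1-low Th in Venus-high Tfh (PD1-low 1) and in Venus-low Tfh (PD1-low 1, Venus-low 2 or 3), and that of Gpr83 1439569_at in Venus-low Tfh against PD1-low Th (PD1-low 2). Against PD1-intermediate Th in Venus-high Tfh it ended those of Ikzf4 (any array but Venus-low 1), Gpr83 1423415_at (any but Venus-high 1, PD1-low 1 or 2) and Gpr83 1439569_at (PD1-intermediate 2), with adjusted p up to 0.449. The median difference over all tested probe sets was not 0 in the steps that join different batches, -0.44 for Venus-low Tfh against PD1-intermediate Th, 0.27 for PD1-intermediate against PD1-low Th, 0.33 for PD1-low Th against naive cells and 0.18 for Venus-high Tfh against naive cells, and after quantile normalization it was -0.02, -0.01, 0.00 and -0.06.

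Entpd1 was not detected above log2 5 in any group. Its 3 probe sets stayed between 2.17 and 4.61, with the highest value, 4.61, on PD1-low array 2 (1423326_at). They were not tested, and no order is drawn from values below the floor.

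Both Capg probe sets and the Ikzf4 probe set 1457342_at were displaced in batch 2, and Ikzf4 1460664_at read differently there without meeting that definition. Capg 1450355_a_at read 10.55, 2.16 and 12.09 in Venus-high Tfh, 11.78, 2.37 and 13.003 in Venus-low Tfh, 12.64 and 12.82 in PD1-intermediate Th, 2.24 and 12.91 in PD1-low Th, and 10.17 and 2.12 in naive cells. Its 4 low values are the 4 arrays of batch 2, and on these same arrays the other probe set, 1447803_x_at, read 10.79, 13.16, 12.17 and 10.82, against at most 2.95 elsewhere. Taking the higher of the pair on each array, a description chosen after the values were seen, gave means of 11.14 ± 0.83 in Venus-high Tfh, 12.65 ± 0.76 in Venus-low Tfh, 12.73 ± 0.12 in PD1-intermediate Th, 12.54 ± 0.53 in PD1-low Th and 10.50 ± 0.46 in naive cells, and within-batch Tfh differences of -1.23, -2.38 and -0.91. Tested singly, neither Capg probe set was called in any of the 5 main comparisons. Ikzf4 1457342_at was near 2.0 on the 4 batch 2 arrays and between 3.34 and 8.15 on the other 8, and 1460664_at rose above 2.1 on batch 2 arrays alone, to 2.6995 in Venus-high Tfh, 5.66 in Venus-low Tfh, 6.55 in PD1-low Th and 5.38 in naive cells. Among the batch 2 arrays, Ikzf4 1460664_at was lowest in Venus-high Tfh.

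**Figure D3:**
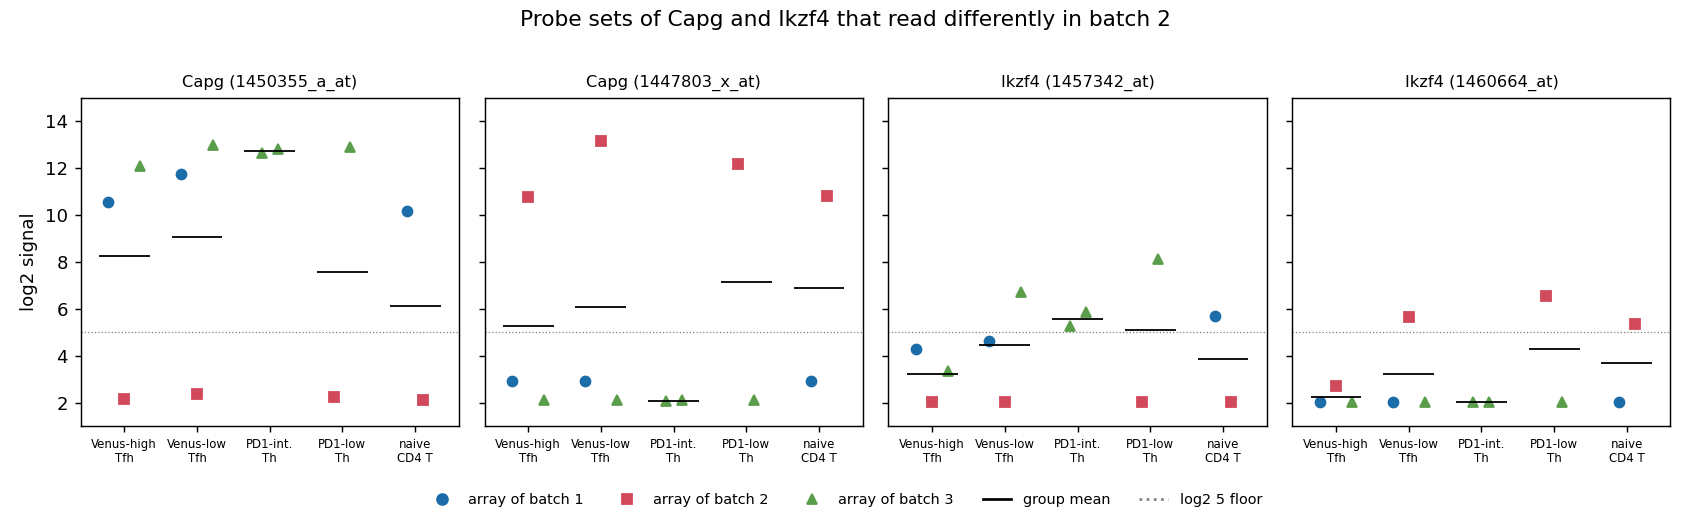
Log2 signal (y axis) of the Capg probe sets and the 2 weaker Ikzf4 probe sets on each array, by group (x axis), with points coloured and shaped by batch, group means as black lines and log2 5 dotted. The 4 batch 2 arrays lie at 2.12 to 2.37 on Capg 1450355_a_at and at 10.79 to 13.16 on 1447803_x_at.

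Whether the genes moved with Foxp3 was also read from Pearson correlations of log2 signal over the 12 arrays, given as a description because the arrays share groups and batches. Ikzf4 1438274_at (r = 0.883) and Gpr83 1439569_at (r = 0.842) stood high, Gpr83 1423415_at followed (r = 0.736), and over all 17901 tested probe sets the median r was 0.171 and the 5% and 95% quantiles -0.407 and 0.584. After centring each batch, these 3 values were 0.949, 0.84 and 0.731. The batches hold different groups, so centring on batch means also removes part of the differences between groups. Ikzf2 1437542_at (r = 0.01), Ctla4 (r = 0.09) and the 4 Nrp1 probe sets (r from -0.17 to -0.05) were near 0, and with batches centred they stood at -0.15, at -0.11 and between -0.30 and -0.19. The other Ikzf2 probe sets were on either side, 1456956_at at 0.23 and 1421643_at at -0.37 (0.05 and -0.48 centred). Nt5e 1428547_at was at -0.33 and 1422974_at at -0.04 (-0.59 and -0.51 centred). Centring moved the probe sets that differ in batch 2 upward: Capg 1450355_a_at stood at 0.26 and 0.55 centred, Capg 1447803_x_at at -0.14 and 0.48, Ikzf4 1460664_at at 0.11 and 0.56, and Ikzf4 1457342_at at 0.51 and 0.62. Over the 5 group means Ikzf4 reached 0.975 and Gpr83 0.848, against 0.08 for Ikzf2 and 0.11 for Ctla4. Between the genes, Pearson r over the 12 arrays set 2 blocks: Ikzf4 with Gpr83 at 0.89, and Ikzf2, Ctla4, Nrp1 and Nt5e with each other at 0.83 to 0.98, whereas Gpr83 and Nt5e stood at -0.65. With batches centred the first value was 0.93, those of the second block were 0.75 to 0.99, and Gpr83 and Nt5e stood at -0.91.

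**Figure D4:**
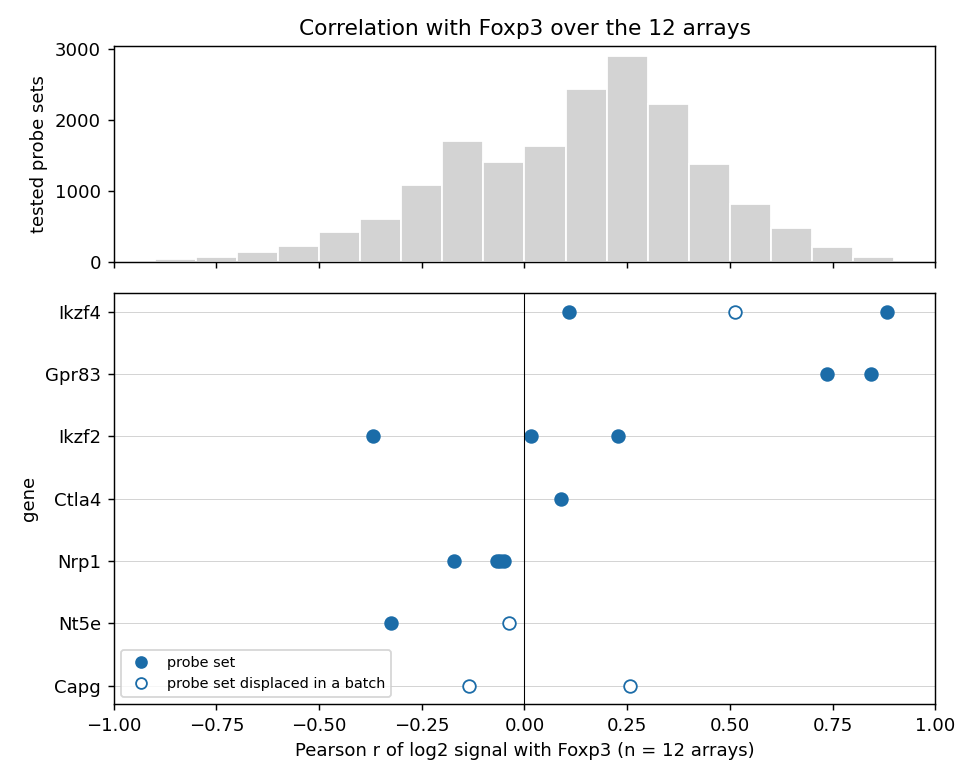
Pearson r with Foxp3 over the 12 arrays for all tested probe sets (upper panel, number of probe sets per bin on the y axis) and for each tested member probe set (lower panel, gene on the y axis). Filled points are probe sets not displaced in a batch and open points are displaced ones. Ikzf4 1438274_at at 0.883 and Gpr83 at 0.842 and 0.736 lie at the right edge of the distribution.

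**Figure D5:**
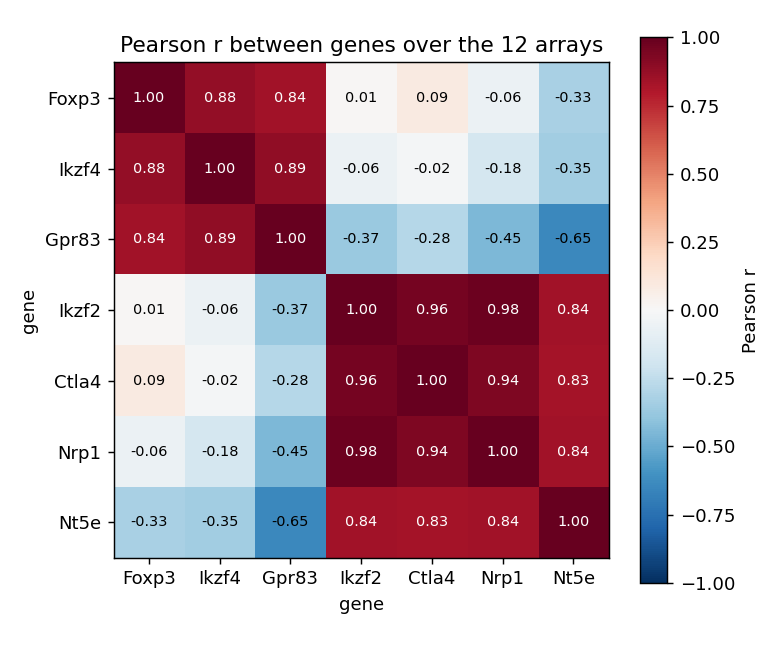
Pearson r of log2 signal between 7 genes over the 12 arrays, 1 probe set per gene, on both axes, with colour from -1 to 1. Foxp3, Ikzf4 and Gpr83 form a block at 0.84 to 0.89, and Ikzf2, Ctla4, Nrp1 and Nt5e form another at 0.83 to 0.98.

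The 10 genes outside the list whose tested probe set was most like Foxp3 were Ctla2a (r = 0.941), Capn2, Myl4, Ppa1, Lsp1, Runx3, Mapk11, Dok2, Cbx2 and Thy1 (r = 0.884). Ctla2a, a cysteine protease inhibitor, read 3.21, 2.45 and 2.49 in Venus-high Tfh, 7.60, 9.27 and 8.58 in Venus-low Tfh, 10.98 and 11.37 in PD1-intermediate Th, 8.86 and 10.83 in PD1-low Th, and 6.53 and 5.62 in naive cells. It shared with Foxp3 the lowest place of Venus-high Tfh and the next lowest of naive cells. Ikzf4 was the member nearest to this group, with 0.067% of tested probe sets at or above its r, Foxp3 itself included.

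Among 25 other genes known from regulatory T cells, 20 were tested and 0 were called between Venus-high and Venus-low Tfh (0.869% of genes by their best probe set), with 7 lower at an unadjusted p under 0.05. The share of all genes at that unadjusted threshold was not computed. The list's median difference was -1.12, against 0.02 over all genes. The smallest p-values were those of Il2ra, the IL-2 receptor alpha chain CD25, at -4.88 ± 1.04 (adjusted p = 0.112), and Itgae, the integrin CD103, at -5.61 ± 1.42 (adjusted p = 0.192). Il2ra read 3.65, 3.90 and 4.83 in Venus-high Tfh, 6.26, 10.69 and 10.08 in Venus-low Tfh, 10.23 and 10.30 in PD1-intermediate Th, 11.43 and 12.73 in PD1-low Th, and 6.87 and 7.67 in naive cells. Its Venus-high arrays were all below log2 5 and below every other array. The group means, with log2 5 for Venus-high Tfh, were lower than in Venus-low Tfh by at least 16.1-fold for Il2ra and 13.3-fold for Itgae. Venus-low 1, at 6.26 for Il2ra, lay closer to that level. With a batch term 9 of the 20 fell and 0 rose (13.8% of genes called), among them Il2ra (adjusted p = 0.0096) and Itgae (adjusted p = 0.0071). Against naive cells, 8 of the 20 rose in Venus-high Tfh and 1 fell (11.9% of genes called), the widest rises being those of Cd83 by 7.25 ± 0.72, Penk by 5.99 ± 1.38 and Plagl1 by 5.67 ± 0.96, while Il2rb, the IL-2 receptor beta chain, rose by 3.59 ± 0.29 and Ecm1, the only gene of the list that fell, did so at -2.93 ± 0.45. Under the batch term 9 rose and 2 fell (38.6% of genes called). Penk was below log2 5 in naive cells, so its rise is at least 10.6-fold. Between PD1-low Th and naive cells 1 of the 20 rose (0.0505% of genes called), Il2rb, by 2.97 ± 0.32 (adjusted p = 0.036), and 3 rose with a batch term (0.394% of genes). Between Venus-low Tfh and PD1-intermediate Th 0 of 20 were called (0.293% of genes, and 1 at an unadjusted p under 0.05, Gzmb at -3.98 ± 1.69), and between PD1-intermediate and PD1-low Th 0 of 20 (3.24% of genes, and 8 at an unadjusted p under 0.05), where Icos differed by 1.77 ± 0.40 and Ecm1 by -2.04 ± 0.49. These steps called, with a batch term, 0 (3.69% of genes) and 3 of the 20, 2 higher and 1 lower (10.8% of genes).

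Among 20 inducers and partners of Foxp3, 19 were tested and 1 fell in Venus-high against Venus-low Tfh (0.869% of genes called), or 3 with a batch term (13.8% of genes). Runx3, which encodes a Runt-domain factor that binds with Foxp3, fell by 5.39 ± 0.33 (adjusted p = 0.0015), which is at least 34.5-fold with log2 5 as the Venus-high level. Runx3 read 4.64, 4.88 and 4.63 in Venus-high Tfh, 9.59, 10.00 and 10.73 in Venus-low Tfh, 10.93 and 10.78 in PD1-intermediate Th, 10.21 and 10.95 in PD1-low Th, and 10.92 and 10.66 in naive cells. Venus-high Tfh alone lay below log2 5, and naive cells stood with the other groups, unlike their place for Foxp3. Against naive cells 3 rose and 4 fell in Venus-high Tfh (11.9% of genes called), and 5 rose and 6 fell with a batch term (38.6% of genes). Runx3 fell by 6.07 ± 0.37 (at least 55.4-fold), Bach2 fell by 4.86 ± 1.11, Satb1 fell by 2.76 ± 0.36, and Irf4 rose by 3.59 ± 0.53. In the other 3 steps, with a batch term, 2, 3 and 0 were called (3.69%, 10.8% and 0.394% of genes). Without it 0 of 19 were called (0.293%, 3.24% and 0.0505% of genes), and 3, 2 and 4 had an unadjusted p under 0.05. The smallest p-values were those of Nr4a2 at 3.07 ± 0.51 between Venus-low Tfh and PD1-intermediate Th (adjusted p = 0.0634), Nr4a2 at -1.73 ± 0.56 between PD1-intermediate and PD1-low Th (adjusted p = 0.239) and Irf4 at 3.09 ± 0.59 between PD1-low Th and naive cells (adjusted p = 0.234). Nr4a2 was below log2 5 on both PD1-intermediate arrays, so these differences amount to folds of at least 5.76 and at least 2.27.

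Of 8 genes that are low in regulatory T cells or repressed by Foxp3, all 8 were tested. Il7r, the IL-7 receptor alpha chain, fell between the Tfh groups by 3.27 ± 0.39 (adjusted p = 0.0133), the only one called of the 8 (0.869% of genes), and so fell in the same comparison as Foxp3. Against naive cells Il4, Il21, Ifng and Ptpn22 rose in Venus-high Tfh and Il7r fell by 6.40 ± 0.44 (11.9% of genes called), with Il4 higher by 9.29 ± 0.75, Il21 by 9.12 ± 0.65 and Ifng by 6.13 ± 1.09. All 3 cytokine genes were below log2 5 in naive cells, which makes the rises at least 112-fold for Il4, 100.3-fold for Il21 and 15.5-fold for Ifng. In PD1-intermediate against PD1-low Th, 3 of 8 rose (3.24% of genes called): Il21 by 8.80 ± 0.71, Il4 by 4.51 ± 0.82 and Il2 by 4.17 ± 0.82. With PD1-low Th below log2 5 these are at least 80.9-fold, 3.08-fold and 3.54-fold. Between Venus-low Tfh and PD1-intermediate Th 0 of 8 were called (0.293% of genes), with 5 at an unadjusted p under 0.05 and Il4 at 4.69 ± 0.75 (adjusted p = 0.0557). Between PD1-low Th and naive cells limma called 0 of 8 (0.0505% of genes), with 0 at an unadjusted p under 0.05. With a batch term the 5 comparisons, from Venus-high against Venus-low Tfh to PD1-low Th against naive cells and Venus-high Tfh against naive cells, called 2, 3, 3, 0 and 7 of the 8. The shares of all genes called there were 13.8%, 3.69%, 10.8%, 0.394% and 38.6%.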

How the data were processed

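Per the labels, 20 ng of total RNA from each of 12 pools of sorted cells was amplified and hybridized to an Affymetrix mouse array. The authors deposited log2 values, 1 per probe set and array, made with GCRMA (background adjustment, quantile normalization and summary), per the submitters' processing notes, and no version is given in the sources used here. The 12 arrays did not share 1 distribution: their 75% quantiles were 8.50 to 8.55 in batch 1, 8.68 to 8.76 in batch 2 and 9.39 to 9.42 in batch 3. Which arrays were normalized together is not stated, so levels in different batches may not be on the same scale. Both PD1-intermediate arrays are in batch 3. Symbols came from the platform annotation: 34958 of 45101 probe sets had 1 symbol, 932 had several and 9211 none.

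Groups came from the sample titles. All 12 arrays entered 1 limma 3.58.1 fit (R 4.3.3) of 5 groups with 7 residual degrees of freedom, over 17901 probe sets that reached log2 5 on at least 2 arrays, with 2-sided moderated tests and Benjamini-Hochberg adjustment over all of them. The number of arrays limits the precision. Folds marked "at least" take log2 5 as the level of a group below it on every array. They set it against the mean of the other group, so single arrays can lie closer. Figures were drawn with Python 3.11.15 and matplotlib 3.10.9.

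Batches came from clustering of array quantiles, and a fit with a batch term had 5 residual degrees of freedom. Same-numbered Venus-high and Venus-low arrays deviated together from their group means (r = 0.937, 0.967 and 0.94), so the numbers were taken to pair them, in the same division as the batches. Alternatives varied the filter, floor, normalization, variance model, arrays fitted, replicate block, batch, probe set and each array. The fit without the 4 batch 2 arrays and the alternatives beyond the 5 main comparisons were chosen after seeing the data.

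The members, lists and tests were chosen with earlier results of these data known. All member probe sets are named. From each list the text names up to 4 genes of the largest change among those called, or up to 2 of the smallest p where none was called, and the 10 genes of highest r with Foxp3. Ecm1 and Ptpn22 go beyond the 4 in Venus-high Tfh against naive cells and were added after their values were seen, to complete small counts. Representative probe sets of the list genes have the highest mean over all arrays.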

Additional observations from a re-analysis of the deposited data

How the results depend on the processing

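Of the member differences, 92 were recomputed under 23 to 25 alternatives: all 18 tested probe sets between the Tfh groups, Foxp3 in every comparison, and elsewhere those called with or without a batch term. Comparisons beyond the 5 listed here were added after seeing the data. Of 2179 values, 1882 kept their direction and their side of the threshold, 157 lost the call, 106 gained it and 34 changed sign, none of the 34 being called under the alternative. Between the Tfh groups, Ikzf2 1437542_at was at 0.0101 after quantile normalization and Ikzf4 1460664_at at 0.0005 without batch 2. Leaving out each array in turn gave -0.31 to 0.27 for Ikzf2 1437542_at, -0.31 to 0.48 for Ikzf2 1421643_at, -1.60 to 0.22 for Ikzf4 1460664_at, -0.38 to 0.71 for Ctla4, -0.036 to 0.92 for Nrp1 1418084_at, -0.46 to 0.62 for 1448943_at, -0.089 to 0.33 for 1448944_at and -0.34 to 0.67 for 1457198_at, -1.44 to 1.34 for Nt5e 1422974_at, -3.55 to 2.75 for Capg 1447803_x_at and -4.12 to 2.27 for 1450355_a_at. In Venus-low Tfh against PD1-low Th it gave -0.54 to 1.81 for Ikzf2 1456956_at and -0.13 to 2.76 for Nrp1 1448943_at. Without batch 2 these were -0.38 and -0.23, with Ikzf2 1437542_at at -0.032 there and at -0.045 in Venus-high Tfh against PD1-low Th, and Ikzf2 1456956_at was at -0.0081 with the replicate block. Foxp3 between Venus-low Tfh and PD1-intermediate Th was at 0.23 after quantile normalization. The counts of called probe sets moved more. They are given in the order Venus-high against Venus-low Tfh, Venus-low Tfh against PD1-intermediate Th, PD1-intermediate against PD1-low Th, PD1-low Th against naive cells, and Venus-high Tfh against naive cells. As reported, the 5 comparisons called 109, 48, 445, 6 and 1704 of all tested probe sets and 2, 0, 0, 1 and 13 of the members.

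With a batch term they called 2080, 546, 1623, 66 and 6132 of all, and 3, 1, 4, 5 and 13 members. With batch as a random block they called 2405, 1047, 1918, 151 and 6104 of all, and 4, 4, 4, 6 and 13 members. After quantile normalization they called 360, 110, 724, 25 and 2626 of all, and 3, 1, 1, 2 and 13 members. With only the 2 groups compared they called 0, 0, 41, 0 and 642 of all, and 0, 0, 0, 0 and 6 members. Without the 4 arrays of batch 2 they called 0, 0, 107, 0 and 593 of all, and 0, 0, 0, 0 and 4 members. With the replicate number as a block over the 12 arrays they called 216, 3895, 713, 18 and 2524 of all, and 3, 0, 0, 2 and 13 members. The check of deviations covered only the Tfh arrays, and nothing in the labels ties the number across the other groups. The 6 Tfh arrays with the replicate block called 1050 of all and 4 members, Ikzf4 and Nt5e being the added ones. The block changed no other member call between the Tfh groups.

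Other settings moved single counts past 1.5 times. With trend and robust variance the first, the second and the fourth comparison called 50, 17 and 3. With values under log2 5 set to log2 5 the second called 76, and 2 members were called in the third. Without the probe sets displaced in batch 2 the second and the fourth called 85 and 14. With no filter the fourth called 28 and the first called 1 member. At a filter of log2 6 the fourth called 2 and 0 members. With 1 probe set per gene the last called 7 members. Leaving out each array in turn gave 21 to 126, 5 to 49, 101 to 424, 0 to 26 and 995 to 1681 of all, and 1 to 2, 0 to 0, 0 to 1, 0 to 2 and 7 to 13 members. The cause of these shifts was not tested. The split of higher and lower calls moved with scaling in the second comparison, from 29 and 19 to 92 and 18 after quantile normalization and to 38 and 38 with the floor, and in the last, from 1179 and 525 to 1447 and 1179 after quantile normalization, and in the fourth, from 4 and 2 to 9 and 0 with the floor. Among the tested probe sets, signals under log2 5 on every array of a group limit Venus-high Tfh for all Ikzf4 probe sets and Gpr83 1423415_at, PD1-low and naive cells for Ikzf2 1421643_at, naive cells for Nrp1 1418084_at, PD1-intermediate Th for Ikzf4 1460664_at and Capg 1447803_x_at, and all but the Tfh groups for Nt5e 1422974_at. Gpr83 1439569_at was under it on 2 of 3 Venus-high arrays, and its Tfh difference was -3.30 with the floor. Entpd1 was under it throughout.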
